A study of Mus musculus with 12 samples.

Results

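The genes of the interleukin-6 (IL-6) and interleukin-12 (IL-12) families were followed in bulk RNA-seq of mouse macrophages and livers from a study of the thyrotropin (TSH) receptor gene *Tshr*. The 10 members were taken by symbol from the 55335 genes of the count table, with the row of the highest total where a symbol was repeated. They were 7 ligand genes (*Il6*, *Lif*, *Il12a*, *Il12b*, *Il23a*, *Il27* and *Ebi3*) and 3 receptor genes (*Il6ra*, *Il6st* and *Il12rb1*). The design held 12 libraries in 4 groups of n = 3. Mice of every group carried *Tshr* alleles flanked by loxP sites, written Tshr f/f when they had no Cre. Tshr MKO mice also carried Lyz2-Cre, a recombinase under the promoter of the lysozyme 2 gene, which is active in macrophages and in other myeloid cells. Bone marrow-derived macrophages (BMDMs) of male mice were grown for 7 days with 10 ng/mL of M-CSF, the macrophage growth factor, and then received 1 ng/mL of TSH for 24 h in both genotypes. The age of these mice was 6 weeks in the sample records and 6 to 8 weeks in the methods of the study. No BMDM library without TSH was analysed here, so that a response to TSH could not be measured, and the comparison was between genotypes under TSH. Livers were those of male mice that started a high-fat diet at 6 weeks of age, stayed on it for 9 weeks, fasted for 8 h and were killed 5 min after 1.5 U/kg of insulin. The study describes the 2 genotypes as littermates, with n = 3 per group. The labels did not say that the replicates of a group were separate mice or which libraries came from 1 litter. The p-values then measure the spread between these libraries only.

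IL-6 family cytokines share the signal-transducing receptor chain gp130, which is encoded by *Il6st*. IL-6 first binds IL-6Rα, encoded by *Il6ra*, and the complex with gp130 activates JAK kinases and the transcription factor STAT3, while leukaemia inhibitory factor (LIF) pairs gp130 with its own receptor. IL-12 family cytokines are pairs of subunits that are exchanged between cytokines. The p40 subunit (*Il12b*) forms IL-12 with p35 (*Il12a*) and IL-23 with p19 (*Il23a*), and EBI3 (*Ebi3*) forms IL-27 with p28 (*Il27*). Activated macrophages and dendritic cells are known sources of these cytokines, hepatocytes are a known target of IL-6, and *Il12rb1* encodes a chain of the receptors for IL-12 and for IL-23.

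Libraries held 28962878 to 40954211 counts, and 3 counts corresponded to 0.0733 to 0.104 CPM (the counts-per-million scale). CPM values below are normalized within each tissue by the trimmed mean of M values (TMM). *Tshr* had 0, 0 and 2 counts in the Tshr f/f BMDMs, 0, 0 and 5 counts in Tshr MKO BMDMs and 0 counts in every liver, so that the deletion could not be checked in either tissue. The study also tabulated counts of receptor genes in these livers, and there the counts of these libraries stand under the heading of the other genotype. The labels are followed below, livers are named as labelled, and each direction in liver depends on them. The list of macrophage markers summed to 15290 to 30244 CPM in BMDMs and the list of hepatocyte markers to 76804 to 101377 CPM in livers, while hepatocyte markers in BMDMs reached at most 0.0783 CPM. *Lyz2*, the lysozyme 2 gene, gave the largest part of the macrophage sum in BMDMs. It was at 8871, 9843 and 8773 CPM in the Tshr f/f and at 16149, 14537 and 22320 CPM in Tshr MKO BMDMs. In livers it was at 27.7, 59.9 and 44.7 CPM against 1.56, 106 and 43.7 CPM. What these values mean for the labels was not tested. Tshr f/f replicate 3 stood apart among the BMDMs, with a TMM normalization factor of 0.738 against 0.993 to 1.114 in the other 5 libraries. Fold changes of the members in BMDMs are given with and without it.

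All 7 ligand genes were lower in Tshr MKO than in Tshr f/f BMDMs, each with non-overlapping groups, and the fitted differences ranged from 2.13-fold for *Ebi3* to 761-fold for *Il12b* among those with counts in every library. With edgeR's quasi-likelihood test, 7 of the 10 members were lower at an unadjusted p under 0.05, where 10.2% of all 15372 genes tested were, and 0 were higher, against 7.73% of all genes. Groups did not overlap in the lower direction for the same 7 members, against 14.0% of all genes, and in the higher direction for *Il6ra*, against 14.8%. After Benjamini-Hochberg adjustment over all genes, 0 members and 0% of the genes passed 0.05 in edgeR. DESeq2 gave an adjusted p under 0.05 to 3 members, *Il12b*, *Il27* and *Lif*, and gave *Il6*, *Il12a* and *Il23a* no p because it marked a library of each as an outlier. Without Tshr f/f replicate 3, the same 7 ligand genes were lower at an unadjusted p under 0.05 in edgeR, where 7.40% of the genes were, and *Il6ra* was higher, where 7.85% were. In bulk RNA, fewer cells that make a transcript and less of it per cell cannot be told apart.

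*Il6* (ENSMUSG00000025746, GRCm38 chromosome 5, 30013114 to 30019981, plus strand) encodes IL-6, the founding ligand of its family. It was at 58.6, 25.2 and 1454 CPM in the Tshr f/f BMDMs and at 0.392, 0.293 and 1.98 CPM in Tshr MKO BMDMs. The lowest Tshr f/f library was 12.8-fold above the highest Tshr MKO library, although the Tshr f/f libraries themselves spanned 57.6-fold. The log2 fold change, Tshr MKO over Tshr f/f, was −9.16 (SE 2.13, unadjusted p = 0.00443, edgeR adjusted p = 0.218) and −5.55 without Tshr f/f replicate 3.

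*Lif* (ENSMUSG00000034394, chromosome 11, 4257557 to 4272514, plus strand) encodes LIF, a cytokine first named for its effect on leukaemia cells. It stood at 14.5, 10.3 and 82.9 CPM against 1.18, 1.25 and 1.95 CPM in the same order of groups. Tshr f/f replicates 1 and 2 were close together, and both were at least 5.26-fold above every Tshr MKO library. On the log2 scale the fold change was −4.61 (SE 0.93, unadjusted p = 0.00215, edgeR adjusted p = 0.218), and −3.08 without Tshr f/f replicate 3.

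*Il12a* (ENSMUSG00000027776, chromosome 3, 68690644 to 68698547, plus strand) encodes p35, the subunit particular to IL-12 and IL-35. Its values were 9.44, 7.26 and 110 CPM in the Tshr f/f BMDMs. In Tshr MKO BMDMs it had 6 counts in replicate 1 and 0 counts in the other 2 libraries, where a count of 0 allows up to 3. The ratio of summed counts, scaled by effective library size, was 634 (95% exact binomial interval 291 to 1728, counting error only) and was 162 (74.2 to 444) without Tshr f/f replicate 3. The fitted log2 fold change was −9.59 (SE 1.82, unadjusted p = 0.00155, edgeR adjusted p = 0.218), and −7.26 without that replicate.

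*Il12b* (ENSMUSG00000004296, chromosome 11, 44400063 to 44414033, plus strand) encodes p40, the subunit that IL-12 and IL-23 share. It was measured at 96.4, 1.92 and 937 CPM in the Tshr f/f BMDMs and at 0.574, 0.267 and 0.506 CPM in Tshr MKO BMDMs. Replicate 2 of Tshr f/f lay 50.1-fold under replicate 1 and only 3.35-fold above the highest Tshr MKO library. Tshr MKO over Tshr f/f, the log2 fold change was −9.57 (SE 2.30, unadjusted p = 0.00523, edgeR adjusted p = 0.218, DESeq2 adjusted p = 3.7e-06), and −6.77 without replicate 3.

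*Il23a* (ENSMUSG00000025383, chromosome 10, 128296139 to 128298752, minus strand) encodes p19, the subunit particular to IL-23. It was the rarest ligand transcript, with 21, 15 and 164 counts in the Tshr f/f and 0, 2 and 0 counts in Tshr MKO BMDMs. The ratio of summed counts was 107.1 (95% exact binomial interval 29.3 to 891), and 25.3 (6.51 to 217) without Tshr f/f replicate 3. The fitted log2 fold change was −6.85 (SE 1.77, unadjusted p = 0.00735, edgeR adjusted p = 0.218), and −4.43 without replicate 3.

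*Il27* (ENSMUSG00000044701, chromosome 7, 126589010 to 126594941, minus strand) encodes p28, the subunit particular to IL-27. It was at 29.8, 1.92 and 189 CPM against 1.80, 1.28 and 1.88 CPM. Tshr f/f replicate 2 was 1.02-fold the highest Tshr MKO library, so the 2 groups barely separated. In edgeR the log2 fold change was −5.47 (SE 1.54, unadjusted p = 0.0110, edgeR adjusted p = 0.222, DESeq2 adjusted p = 0.00371), and −3.27 without replicate 3. In the annotation 103 of its 1021 exon bases overlap exons of *Apobr* on the other strand, and the strand setting of the counting was not given in the sources used here. *Apobr* was at 110, 159 and 69.2 CPM in the Tshr f/f BMDMs and at 137 to 158 CPM in Tshr MKO BMDMs. Whether reads of *Apobr* were counted as *Il27* in any library was not tested.

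*Ebi3* (ENSMUSG00000003206, chromosome 17, 55952640 to 55957022, plus strand) encodes the partner of p28 in IL-27. It was the ligand gene with the smallest difference, at 50.4, 40.1 and 100 CPM against 29.4, 28.4 and 31.5 CPM. The Tshr MKO libraries were within 1.11-fold of each other, and the lowest Tshr f/f library was 1.27-fold above them. The log2 fold change was −1.09 (SE 0.34, unadjusted p = 0.0169, edgeR adjusted p = 0.229, DESeq2 adjusted p = 0.0544), and −0.60 without replicate 3. Without Tshr MKO replicate 2 its unadjusted p was 0.0519 in edgeR, the 1 loss of this call when a single library was left out.

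**Figure D1:**
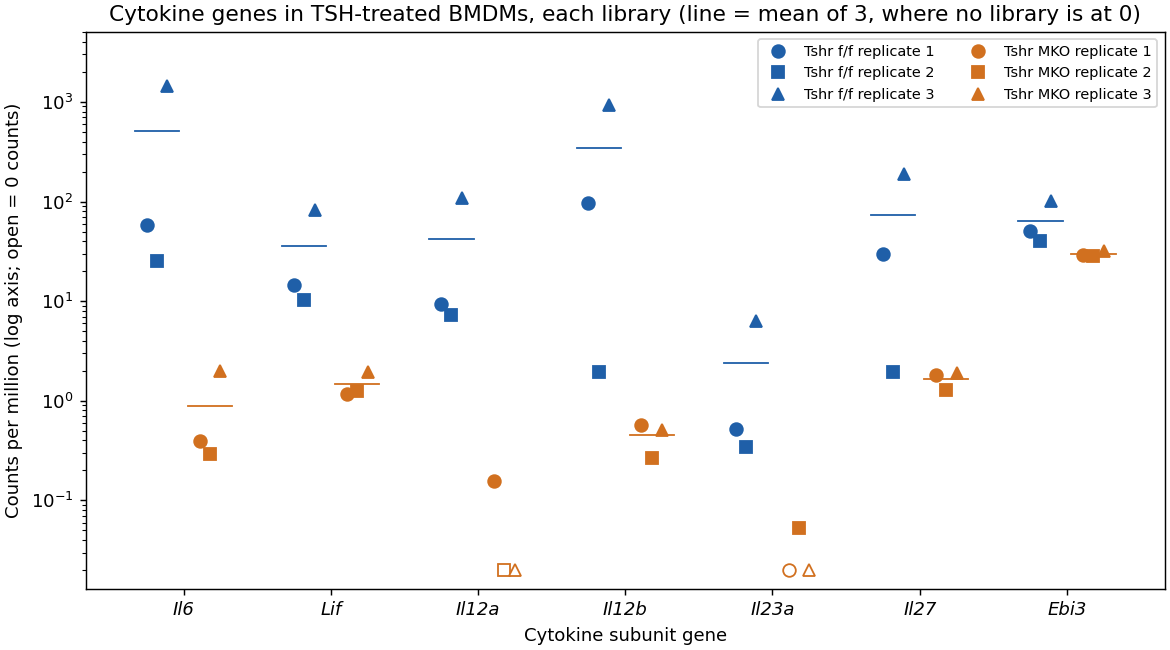
CPM (log axis) of the 7 ligand genes in each TSH-treated BMDM library, with Tshr f/f in blue, Tshr MKO in orange, a marker shape for each replicate and open markers for 0 counts. Each blue library lies above every orange library of its gene, by as little as 1.02-fold for *Il27*, and Tshr f/f replicate 3 (triangle) is the highest for all 7 genes.

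The Tshr f/f replicates did not differ by a common factor. Replicate 3 exceeded replicate 1 by 1.99-fold for *Ebi3*, 5.72-fold for *Lif*, 6.35-fold for *Il27*, 9.72-fold for *Il12b*, 11.6-fold for *Il12a*, 11.9-fold for *Il23a* and 24.8-fold for *Il6*. Replicate 2 split the ligand genes. It held *Il12b* and *Il27* 50.1-fold and 15.5-fold under replicate 1, whereas *Il6* was 2.32-fold under replicate 1 and *Il12a*, *Il23a*, *Ebi3* and *Lif* were 1.26-fold to 1.53-fold under it. Markers of other cells also differed between these libraries. Fibroblast markers, all 6 of which were detected, summed to 2773 CPM in the Tshr f/f replicate 2 and to 777 to 1494 CPM in the other 5 libraries. Neutrophil markers, of which 10 of 10 had counts in some library, summed to 7.61, 31.2 and 49.2 CPM in the Tshr f/f and to 5.36 to 12.6 CPM in Tshr MKO BMDMs. *S100a8* alone gave 45.6 of the 49.2 CPM in replicate 3, where *Ly6g*, *Elane*, *Cxcr2* and *S100a9* were at 0. Of the 5 neutrophil markers tested, 2 were lower and 2 higher in Tshr MKO at an unadjusted p under 0.05 in edgeR. *Retnlg* ran against the sum, at 0.0753, 0.0458 and 0.115 CPM in the Tshr f/f and 0.992, 0.560 and 1.71 CPM in Tshr MKO BMDMs. Dendritic cell markers, 8 of 8 with counts, summed to 32.1 to 59.3 CPM in the Tshr f/f and to 70.9 to 95.0 CPM in Tshr MKO BMDMs, and *Siglech* was at 0 in all Tshr f/f libraries. Most of that sum was *Itgax*, at 48.0, 16.0 and 32.9 CPM against 68.6, 62.1 and 85.8 CPM, whereas *Ccr7* went the way of the ligand genes, at 6.03, 10.9 and 13.4 CPM against 2.87, 2.37 and 3.83 CPM. The part of these cells in the ligand differences was not tested.

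The split between replicates changed the balance of subunits, given here as ratios of counts per kilobase of exon. The ratio of p40 to p35 transcript was 8.83 and 7.39 in Tshr f/f replicates 1 and 3 and 0.229 in replicate 2, so p40 transcript was in excess in 2 of the 3 libraries. In Tshr MKO BMDMs the ratio rested on 10 to 22 counts of *Il12b* and 0 to 6 counts of *Il12a* and is not given. Transcript of p40 exceeded that of p19 209-fold, 6.40-fold and 170-fold in the 3 Tshr f/f libraries. The ratio of EBI3 to p28 transcript was 1.49, 18.5 and 0.469 in the Tshr f/f libraries and 14.4, 19.6 and 14.8 in those of Tshr MKO. Replicate 2 of Tshr f/f was thus inside the Tshr MKO range for this ratio, and p28 transcript exceeded EBI3 transcript only in replicate 3 of the 6 BMDM libraries.

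**Figure D2:**
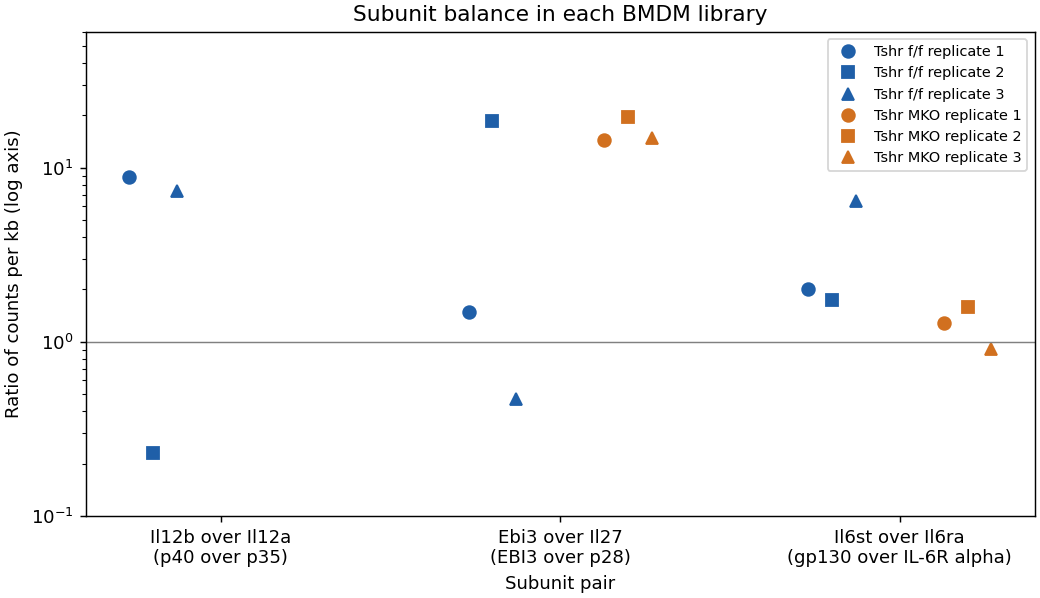
Ratio of counts per kilobase of exon (log axis, grey line at 1) between paired subunits in each BMDM library. The ratio of *Il12b* to *Il12a* was 8.83 and 7.39 in Tshr f/f replicates 1 and 3 and 0.229 in replicate 2 (Tshr MKO is not drawn, with at most 6 counts of *Il12a*), and the ratio of *Ebi3* to *Il27* in Tshr f/f replicate 2 lies among those of Tshr MKO.

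*Il6ra* (ENSMUSG00000027947, chromosome 3, 89864059 to 89913196, minus strand), the gene of the specific IL-6 receptor chain, went the other way in BMDMs. It was at 57.0, 69.7 and 15.1 CPM in the Tshr f/f and at 101, 90.6 and 130 CPM in Tshr MKO BMDMs. All Tshr MKO libraries lay above all Tshr f/f libraries, and the lowest value came from Tshr f/f replicate 3, the library with the most *Il6*. On the log2 scale the fold change was 1.18 (SE 0.53, unadjusted p = 0.0631, edgeR adjusted p = 0.296). With Tshr f/f replicate 3 left out it was 0.76, with a smaller spread and an unadjusted p of 0.00702 in edgeR.

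*Il6st* (ENSMUSG00000021756, chromosome 13, 112464070 to 112510086, plus strand), which encodes gp130, varied least of all members in BMDMs. It was at 148, 156 and 125 CPM in the Tshr f/f and 168, 185 and 152 CPM in Tshr MKO BMDMs. The groups overlapped, and the log2 fold change was 0.24 (SE 0.15, edgeR adjusted p = 0.434), and 0.15 without Tshr f/f replicate 3. The ratio of gp130 to IL-6Rα transcript per kilobase was 2.02, 1.75 and 6.44 in Tshr f/f and 1.29, 1.59 and 0.912 in Tshr MKO BMDMs.

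*Il12rb1* (ENSMUSG00000000791, chromosome 8, 70808449 to 70821424, plus strand), which encodes the receptor chain shared by IL-12 and IL-23, was at 30.6, 9.00 and 17.0 CPM in the Tshr f/f and at 8.12, 7.23 and 18.9 CPM in Tshr MKO BMDMs. A single library of each genotype was well above the others, and the groups overlapped. Tshr MKO over Tshr f/f, the log2 fold change was −0.72 (SE 0.55, edgeR adjusted p = 0.495), and −0.81 without Tshr f/f replicate 3.

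**Figure D3:**
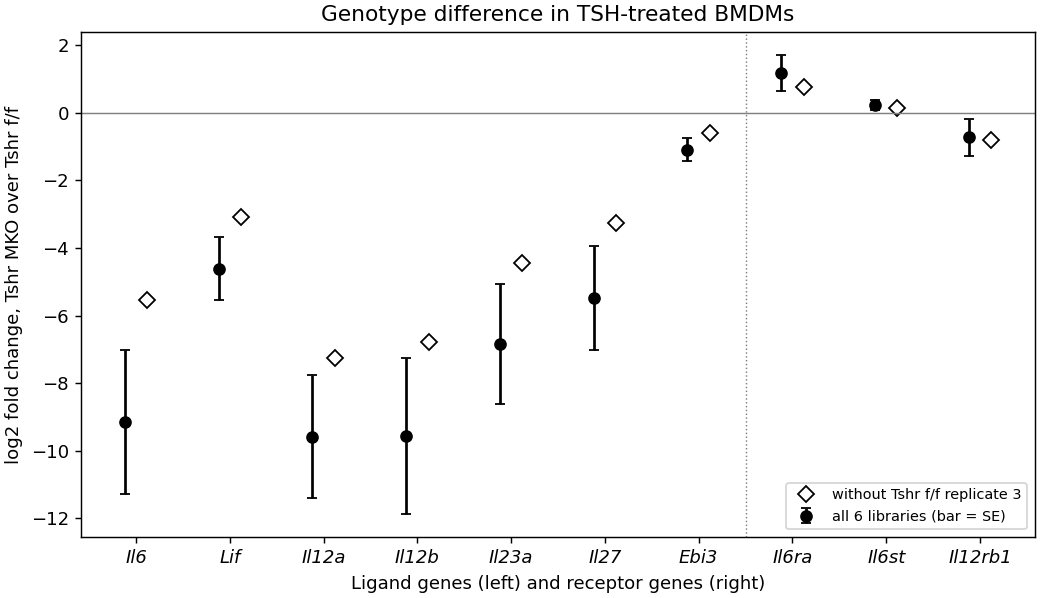
Log2 fold change of each member between Tshr MKO and Tshr f/f BMDMs, with all 6 libraries (filled circles, bars of 1 SE) and without Tshr f/f replicate 3 (open diamonds). The 7 ligand genes are below 0 in both, from −9.59 to −1.09 with all libraries, and *Il6ra* is above 0 at 1.18 and 0.76.

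All 7 ligand genes were lower in Tshr MKO BMDMs, though not by a common factor, and control through shared motifs was not tested. The bases before the start sites are shown for the members with a match to a searched motif (*Il6*, *Lif* and *Ebi3*). They are also shown for *Il12b*, the ligand gene that stood furthest under replicate 1 in replicate 2 of Tshr f/f, and *Il6ra*, the member that went the other way. RefSeq promoters of GRCm38.p6 were at hand for 7 of the 10 members. Each sequence is the 250 bases before the start, 5′ to 3′ on the strand of the gene. Capitals mark the NF-κB motif, the AP-1 motif (TGANTCA) and the C/EBP motif (TTGCNNAA), searched on both strands.
*Il6* (chr5:30012864-30013113, plus strand): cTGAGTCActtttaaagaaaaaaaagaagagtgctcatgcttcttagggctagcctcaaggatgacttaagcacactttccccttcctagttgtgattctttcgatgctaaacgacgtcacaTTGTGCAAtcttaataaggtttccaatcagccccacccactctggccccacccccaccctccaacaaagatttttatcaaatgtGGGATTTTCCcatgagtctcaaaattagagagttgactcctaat
*Lif* (chr11:4257318-4257567, plus strand): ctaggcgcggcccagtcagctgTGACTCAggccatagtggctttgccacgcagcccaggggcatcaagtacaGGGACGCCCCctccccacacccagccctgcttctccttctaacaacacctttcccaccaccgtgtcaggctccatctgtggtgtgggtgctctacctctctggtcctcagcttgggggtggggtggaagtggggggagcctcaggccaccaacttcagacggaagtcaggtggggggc
*Ebi3* (chr17:55952373-55952622, plus strand): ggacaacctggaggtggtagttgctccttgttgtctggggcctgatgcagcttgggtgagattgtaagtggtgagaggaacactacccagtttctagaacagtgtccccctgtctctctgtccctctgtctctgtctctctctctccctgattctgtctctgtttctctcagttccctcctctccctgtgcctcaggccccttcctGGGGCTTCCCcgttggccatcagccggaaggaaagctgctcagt
*Il12b* (chr11:44399813-44400062, plus strand): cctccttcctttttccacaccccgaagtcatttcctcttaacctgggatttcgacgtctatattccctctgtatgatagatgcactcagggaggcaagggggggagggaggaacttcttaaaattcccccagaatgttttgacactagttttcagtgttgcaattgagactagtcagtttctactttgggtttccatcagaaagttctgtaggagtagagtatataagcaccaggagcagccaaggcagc
*Il6ra* (chr3:89913197-89913446, minus strand): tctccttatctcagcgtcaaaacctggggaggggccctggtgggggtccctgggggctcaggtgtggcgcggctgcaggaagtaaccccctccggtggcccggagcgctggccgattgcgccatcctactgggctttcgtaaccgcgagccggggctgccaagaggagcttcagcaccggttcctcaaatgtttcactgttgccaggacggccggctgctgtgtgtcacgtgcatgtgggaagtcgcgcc

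The *Il6* window held an NF-κB motif 44 to 35 bases before the start, a C/EBP motif 128 to 121 bases before it and an AP-1 motif 249 to 243 bases before it. The *Lif* window held an NF-κB motif 178 to 169 bases and an AP-1 motif 228 to 222 bases before the start, and the *Ebi3* window held an NF-κB motif 44 to 35 bases before its start. Of all 32851 promoter windows of this length, 7.25% held the NF-κB motif, 6.75% the AP-1 motif and 9.56% the C/EBP motif. The core of the ISRE, which is in 2.98% of the windows, and the TATA box written as TATAAA, in 12.4%, had no match in the members' windows, and the windows of *Il12a*, *Il12b*, *Il6st* and *Il6ra* matched none of the 5 motifs. No match says only that these letters are not in these windows.

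In livers only the receptor genes and *Ebi3* passed the filter on low counts, and their genotype groups overlapped. The filter left 4 of the 10 members. With edgeR 0 of the 4 were lower or higher at an unadjusted p under 0.05, against 5.18% and 5.27% of the 15062 genes tested. None had separate groups, lower or higher, against 7.74% and 9.60% of the genes, and after adjustment 0 members and 0% of the genes passed in edgeR, while DESeq2 gave the 4 members adjusted p-values of 0.471 to 0.973.

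*Il6ra* was at 132.8, 172 and 113 CPM in the livers labelled Tshr f/f and at 102.1, 118 and 115 CPM in those labelled Tshr MKO. The difference was smaller than the spread among the Tshr f/f livers, with a log2 change of −0.32 (SE 0.16, edgeR adjusted p = 0.539). *Il6st* was at 168, 150 and 197 CPM against 145, 139 and 154 CPM, with a log2 change of −0.23 (SE 0.12, edgeR adjusted p = 0.555). *Il12rb1* was low, with 1.56, 1.57 and 1.69 CPM against 0.531, 2.02 and 1.73 CPM, and a log2 change of −0.17 (SE 0.49, edgeR adjusted p = 0.943). *Ebi3* was at 0.677, 2.10 and 0.962 CPM against 1.09, 1.86 and 0.425 CPM, with a log2 change of −0.14 (SE 0.63, edgeR adjusted p = 0.966).

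The other 6 ligand genes were at or near the floor in liver. *Il6* had 3, 9 and 0 counts in the livers labelled Tshr f/f and 0, 11 and 8 counts in those labelled Tshr MKO. *Il23a* had 6, 3 and 0 against 4, 6 and 4 counts. These 2 genes were read in both groups of livers, at counts too low for a comparison. *Il27* had 25 counts in the Tshr f/f replicate 2, 17 counts in Tshr MKO replicate 2 and 0 counts in the other 4 livers. *Il12b* had 13 counts in the Tshr f/f replicate 2 and 0 counts elsewhere, *Lif* had 2 and 3 counts in the livers that held *Il27*, and *Il12a* had 1 count in all 6 livers. The livers labelled Tshr f/f replicate 2 and Tshr MKO replicate 2 thus held the counts of *Il27*, *Il12b* and *Lif* and the highest levels of *Ebi3*. The same 2 livers had the most macrophage markers (367 and 337 CPM, against 147 to 263 CPM in the other 4) and the most dendritic cell markers (41.8 and 27.8 CPM, against 8.43 to 15.4 CPM), the latter mostly *Itgax* at 31.6 and 18.6 CPM, with all 9 macrophage and all 8 dendritic cell markers detected in some liver. The part of these cells in the ligand counts was not tested.

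**Figure D4:**
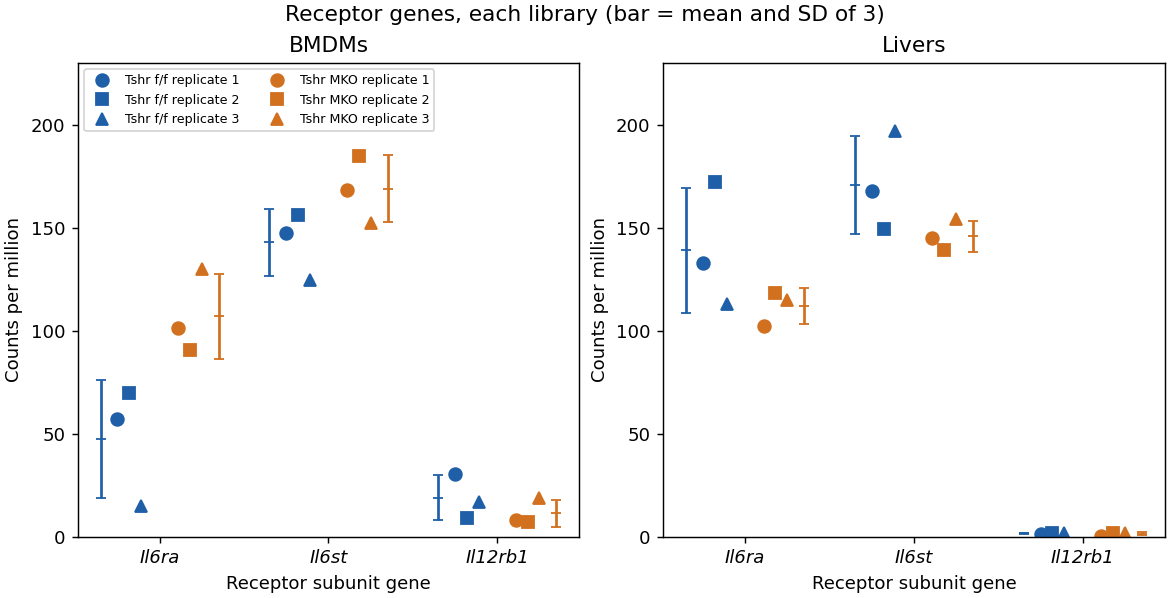
CPM of the 3 receptor genes in each BMDM library (left) and each liver (right), with Tshr f/f in blue, Tshr MKO in orange and bars for the mean and SD of 3 libraries. In BMDMs the Tshr MKO libraries of *Il6ra* (90.6 to 130 CPM) lie above those of Tshr f/f (15.1 to 69.7 CPM), and in livers the groups overlap for all 3 genes.

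Between tissues of Tshr f/f, the ligand genes were higher in macrophages and the IL-6 receptor chains were higher in liver. In Tshr f/f samples fitted with all 12 libraries, 8 of the 10 members were higher in BMDMs than in livers at an edgeR adjusted p under 0.05, where 32.7% of 17246 genes were, and 2 were lower, where 36.6% were. Scaled by library size alone, 8573 genes were higher and 3895 lower, in place of 5634 and 6310, and the median of all genes moved from −0.03 to 0.79 on the log2 scale. The tissues also differed in diet, insulin, age and culture with TSH, and these cannot be told apart from the tissue. *Il6ra* was lower in BMDMs by a log2 change of −2.45 (SE 0.44, edgeR adjusted p = 5.8e-04) and *Il6st* by −1.15 (SE 0.14, edgeR adjusted p = 3.4e-05). Scaled by library size alone, the value of *Il6st* was −0.31, with an edgeR adjusted p of 0.234. *Il12rb1* was higher in BMDMs by 2.67 on the log2 scale (SE 0.59, edgeR adjusted p = 0.00201) and *Ebi3* by 4.77 (SE 0.58, edgeR adjusted p = 3.4e-05). *Il12a* had 3549 counts in the Tshr f/f BMDMs and 0 in the livers labelled Tshr f/f. Over all these libraries it was at least 561-fold higher, with the floor set at 3 counts over the group. Replicate 3 of the Tshr f/f BMDMs gave 2856 of the 3549 counts, and the bound is lower without it. For *Il23a* the libraries overlapped, and its log2 difference of 3.74 (edgeR adjusted p = 0.0243) became 1.33, with an unadjusted p of 0.229 in edgeR, without Tshr f/f BMDM replicate 3. Between the 2 Tshr MKO groups, 4 of the 10 members were called, where 5476 of the 17246 genes were higher in BMDMs and 6342 lower. *Il6*, *Il12a*, *Il12b* and *Il27* were not called there (edgeR adjusted p of 0.225 to 0.745). Nor was *Il6ra*, with a log2 difference of −0.94 (edgeR adjusted p = 0.0696), while *Il6st* was called at −0.68 (edgeR adjusted p = 0.00134). *Il23a* had a log2 difference of −3.52 between these groups (edgeR adjusted p = 0.0798).

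Levels per length, as RPKM (reads per kilobase of exon, scaled as CPM), ordered the members differently in each group. In Tshr f/f BMDMs the mean levels were highest for *Il6* (155 RPKM) and *Il12b* (129), followed by *Il27* (53.2), *Ebi3* (40.5), *Il12a* (18.2), *Il6st* (9.44), *Lif* (6.07), *Il6ra* (4.0), *Il12rb1* (3.38) and *Il23a* (0.783). No neighbours in this order were apart beyond the range of their libraries. Without replicate 3, a choice made after seeing the data, the mean of *Ebi3* (28.7 RPKM) was the highest, ahead of *Il12b* (18.4), *Il6* (12.7), *Il27* (11.5) and *Il6st* (10.0). In Tshr MKO BMDMs *Ebi3* was the first at 19.1 RPKM (SD 1.20), apart from *Il6st* at 11.2 (SD 0.989), which overlapped *Il6ra* at 9.18 (SD 1.84). *Il12rb1* (2.06) and *Il27* (1.20) came next and overlapped, and the other 5 members, *Il6* included, were at 0.271 RPKM or less. In livers labelled Tshr f/f *Il6ra* (21.8 RPKM, SD 4.84) and *Il6st* (20.9 RPKM, SD 2.93) overlapped and were apart from *Ebi3* (1.46 RPKM), while in livers labelled Tshr MKO they were at 17.7 and 17.9 RPKM.

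The difference between genotypes was compared between the tissues with an interaction term. Of the 10 members, 4 had an unadjusted p under 0.05, where 14.5% of the 17246 genes did, and 0 had an adjusted p under 0.05 in edgeR, where 0.00580% of the genes did. DESeq2 gave *Il6* and *Il23a* adjusted p-values of 0.00416 and 0.0147, and the term of both rested on at most 11 counts in any liver. For *Il6ra* the log2 fold change in BMDMs exceeded that in livers by 1.50 (SE 0.60, unadjusted p = 0.0302, edgeR adjusted p = 0.30), and for *Il6st* by 0.47 (SE 0.20, unadjusted p = 0.0382, edgeR adjusted p = 0.320). Both receptor chains of IL-6 thus had positive values in BMDMs and negative values in livers, of which none passed the adjustment in edgeR, and DESeq2 gave their interaction adjusted p-values of 0.129 and 0.130.

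The other genes of these pathways were read from 8 lists written for this purpose, in which 0 genes passed an adjusted p of 0.05 in edgeR in either tissue, and the counts below are at an unadjusted p under 0.05. The median log2 fold change of all genes was 0.01 in BMDMs and −0.01 in livers. At that limit 10.2% of all genes were lower and 7.73% higher in BMDMs, and 5.18% and 5.27% in livers. Without Tshr f/f replicate 3 the shares in BMDMs were 7.40% and 7.85%. Among the other ligands of both families, 1 of 3 tested genes was lower in Tshr MKO BMDMs, *Clcf1* (−1.37, edgeR adjusted p = 0.264), which encodes a cytokine of the CNTF receptor. Without Tshr f/f replicate 3 it was 0 of 5 (medians −1.37 and −0.52). Oncostatin M (*Osm*), a macrophage ligand of gp130, was at 22.3, 35.3 and 113 CPM against 12.5, 7.12 and 51.7 CPM with overlapping groups (−1.26, edgeR adjusted p = 0.473). Among the other receptors, 2 of 7 were lower, *Il23r* (−2.71, edgeR adjusted p = 0.225), the specific chain of the IL-23 receptor, at 0.12 to 3.11 CPM, and *Osmr* (−0.82, edgeR adjusted p = 0.237), the oncostatin M receptor (median of the 7 genes −0.54). Leaving out Tshr f/f replicate 3 left *Il23r* at −1.64 and *Osmr* at −0.64, the latter with an unadjusted p of 0.0679 in edgeR, with 1 gene lower and 2 higher (median 0.00). In livers the medians of these lists and of those in the next paragraphs were −0.24 to 0.15, other than that of the last list. Higher in livers labelled Tshr MKO were *Ctf1*, the cardiotrophin gene (0.66, edgeR adjusted p = 0.463), and *Lifr*, which encodes the LIF receptor. *Lifr* was at 179, 163 and 227 CPM against 322, 244 and 292 CPM, with separate groups (0.59, unadjusted p = 0.00852, edgeR adjusted p = 0.336).

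Of the 7 JAK-STAT transducers, 4 were lower and 0 higher in Tshr MKO BMDMs (median log2 fold change −1.06, and −0.58 with 4 lower without Tshr f/f replicate 3). *Jak2*, a kinase of the IL-12 and IL-23 receptors among others, was at 303, 268 and 855 CPM against 82.9, 86.6 and 98.3 CPM (−2.41, edgeR adjusted p = 0.218, and −1.68 without replicate 3). *Stat3*, which carries the IL-6 signal, was at 277, 266 and 705 CPM against 161, 151 and 232 CPM (−1.20, edgeR adjusted p = 0.257, and −0.58 without replicate 3). The phosphatase gene *Ptpn11* was lower by a smaller value (−0.49, and −0.30 without replicate 3). Of the 8 feedback inhibitors, 3 were lower and 1 was higher (median −0.92), and 3 and 0 without Tshr f/f replicate 3 (median −0.45). The lower genes were *Socs3*, *Socs1* and *Ptpn2*. *Socs3*, a STAT3 target that blocks gp130 signals, was at 205, 109 and 1241 CPM against 38.3, 34.3 and 95.3 CPM (−3.21, edgeR adjusted p = 0.230, −1.50 without replicate 3). *Pias1*, which encodes a SUMO ligase, was the gene that was higher at this limit (0.41), and its unadjusted p in edgeR was 0.0554 without replicate 3. In livers 1 of 7 transducers and 2 of 7 feedback inhibitors were lower, *Ptpn11* (−0.23), *Socs3* (−1.40) and *Pias3* (−0.39).

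Of the 18 factors known to bind control regions of *Il6* or *Il12b*, 11 were lower and 1 was higher in Tshr MKO BMDMs (median −1.18), and 7 and 2 without Tshr f/f replicate 3 (median −0.67). The 4 largest of the lower genes were *Nfkbiz*, which encodes the IκBζ cofactor, at 241, 106 and 1122 CPM against 45.0, 39.6 and 78.6 CPM (−3.17), *Ets2* (−2.29) and the NF-κB subunit genes *Nfkb2* (−2.09) and *Nfkb1* (−1.82), with edgeR adjusted p-values of 0.222 to 0.249. Without replicate 3 these values were −1.68 for *Nfkbiz*, −1.52 for *Ets2*, −1.09 for *Nfkb2* and −0.78 for *Nfkb1*. *Jun*, a subunit of AP-1, was the gene that was higher, at 147, 99.3 and 101.8 CPM against 274.7, 235.5 and 250 CPM (1.13, edgeR adjusted p = 0.218). Replicate 2 of Tshr f/f was the lowest of its group for all 7 ligand genes and for every listed factor but *Fos*. These factors included *Jun*, which was higher in Tshr MKO, and *Irf5*, *Irf8* and *Spi1*, whose groups overlapped. In livers 1 of the 18 was lower, *Fos* (−1.08). Of the 7 regulators of *Il6* mRNA decay, 3 were lower and 1, *Zfp36l1* (0.67), was higher in Tshr MKO BMDMs (median −0.69), while 2 were lower and 0 higher without Tshr f/f replicate 3 (median −0.11). *Zc3h12a*, which encodes the RNase regnase-1 that degrades *Il6* mRNA, was lower (−2.09, edgeR adjusted p = 0.257, −0.73 without replicate 3), as were *Arid5a* (−1.31), whose product stabilises that mRNA, and *N4bp1* (−1.06), which encodes another RNase. Without replicate 3 the value of *N4bp1* was −0.89, with an unadjusted p of 0.00737 in edgeR, and that of *Arid5a* was −0.82, with an unadjusted p of 0.0538. In livers 3 of the 7 were lower, *Zc3h12a* (−0.88), *Zfp36* (−0.33) and *N4bp1* (−0.24). Leaving out the liver labelled Tshr f/f replicate 1 gave −0.55, −0.32 and −0.25, with unadjusted p-values in edgeR of 0.0232, 0.0268 and 0.0841. In the list of shedding and trans-signalling, *Rhbdf2*, a partner of the ADAM17 protease, was lower in BMDMs (−1.82, and −0.99 without replicate 3) and in livers labelled Tshr MKO (−0.88), and *Adam10*, a protease that can shed IL-6Rα, was higher in BMDMs (0.57), with a median of −0.19 over the 3 genes.

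Genes induced through IL-6 and STAT3 in liver had lower values in livers labelled Tshr MKO, where *Il6* itself was near the floor. All 26 listed genes had negative values, 9 of them at an unadjusted p under 0.05 in edgeR, where 5.18% of all genes were lower, and 0 after adjustment (median −0.83). The list was written with earlier results of these data known, so these counts are not an independent test. The serum amyloid A gene *Saa2* was at 8956, 101.8 and 1921 CPM in the livers labelled Tshr f/f and at 35.8, 68.3 and 322 CPM in those labelled Tshr MKO (−4.69, edgeR adjusted p = 0.420). *Orm2*, which encodes an acute-phase glycoprotein, was at 1259, 25.6 and 165 CPM against 27.5, 13.5 and 29.8 CPM (−4.36, edgeR adjusted p = 0.375). *Saa1* (−3.44) and *Lcn2*, the lipocalin 2 gene (−2.94), had the next largest differences among the 9. The liver labelled Tshr f/f replicate 1 was the highest of the 6 for each of these 4 genes, and its neutrophil markers, all 10 of which were detected in some liver, summed to 110 CPM against 10.3 to 34.2 CPM in the other 5, with *Ly6g* at 0.0677 CPM. Their part in the difference was not tested. Without that liver, 20 of the 26 genes had negative values, 1 was lower and 1 higher at an unadjusted p under 0.05 in edgeR, and the median was −0.41. The same list had 10 of 14 tested genes lower and 0 higher in Tshr MKO BMDMs (median −1.58), and 5 lower (median −1.0) without Tshr f/f replicate 3. The 4 with the largest differences there were *Lcn2* (−6.88), *Il1rn* (−4.31), *Saa3* (−3.43) and *Socs3*. *Il1rn*, the gene of the IL-1 receptor antagonist, was at 154, 67.0 and 3404 CPM in the Tshr f/f and at 43.3, 33.8 and 106 CPM in Tshr MKO BMDMs. Its value was −0.87 without Tshr f/f replicate 3, with an unadjusted p of 0.198 in edgeR, while those of *Lcn2* and *Saa3* were −5.47 and −2.65.

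**Figure D5:**
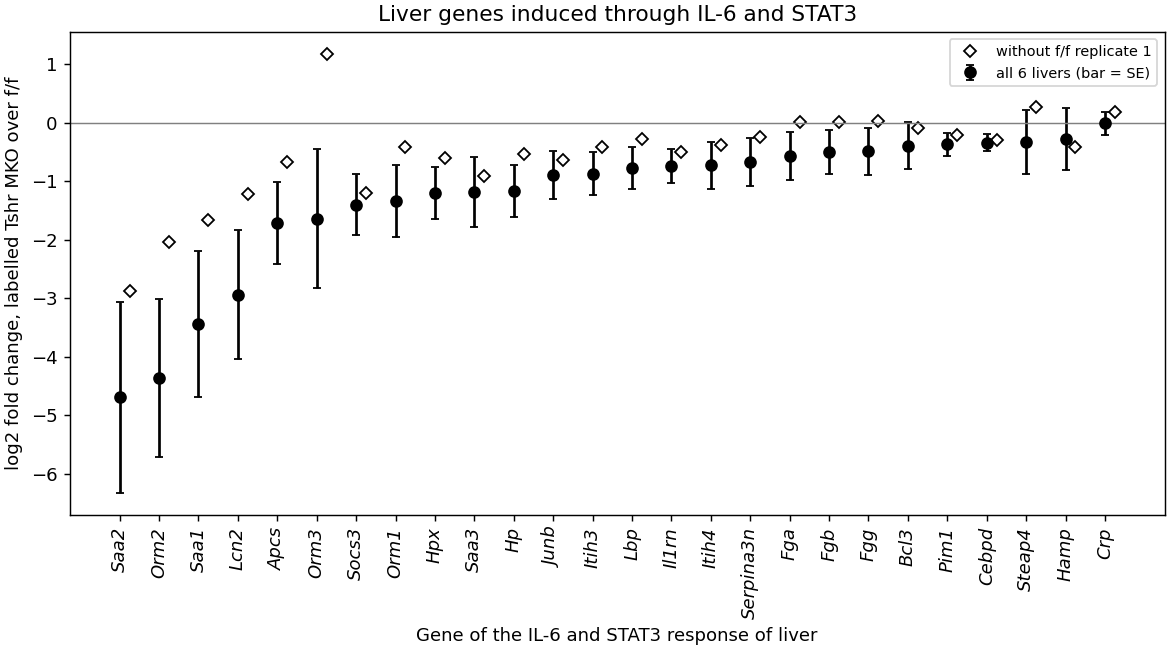
Log2 fold change between livers labelled Tshr MKO and Tshr f/f for the 26 genes of the IL-6 and STAT3 response of liver, with all 6 livers (filled circles, bars of 1 SE) and with Tshr f/f replicate 1 left out (open diamonds). All 26 values are below 0 with every liver included, from −4.69 to −0.01, and 20 are below 0 without that liver.

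The genes whose levels followed a member most closely were sought among genes with a mean of at least 50 counts, on the log2(CPM + 0.5) scale. Over the 6 BMDM libraries, with Tshr f/f replicate 3 and the 2 genotypes among them, *Il6* was followed by *Sod2*, the mitochondrial superoxide dismutase gene (Pearson r = 0.9985), and by *Pfkp*, *Spata13*, *Rab10* and *Zswim4* (0.9976 to 0.9981). *Il12b* was followed by *Tapbp*, the gene of tapasin (Pearson r = 0.9995), and by *Trip10*, *Zbp1*, *Adhfe1* and *Myd88* (0.9974 to 0.9989). *Tapbp* was at 1169, 602 and 1741 CPM in the Tshr f/f and 503 to 538 CPM in Tshr MKO BMDMs, with Tshr f/f replicate 2 close to the Tshr MKO libraries as for *Il12b*, while *Sod2* was at 1018, 727 and 2487 CPM against 241 to 351 CPM. Over the 6 livers *Il6ra* was followed by *Tmem65* (r = 0.9830), *Pkig*, *Gm2274*, *Commd5* and *Zfp953* (0.9635 to 0.9826). These values describe 6 libraries and were drawn from 12521 genes in BMDMs and 11978 in livers.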

How the data were processed

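Strand-specific mRNA libraries of BMDMs and livers were read on a NovaSeq instrument. The values are whole counts of reads per gene, deposited by the authors for 12 libraries without normalization. The submitters' processing notes name FastQC 0.11.2, STAR, StringTie and the mm10 build, and the study names Skewer for trimming. The counting settings are not given in the sources used here.

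Groups were taken from the labels. In R 4.3.3, counts that passed filterByExpr were scaled by TMM factors and entered the robust quasi-likelihood test of edgeR 4.0.16, within each tissue for genotype and over all 12 libraries for tissue and for the interaction, with p-values adjusted over all genes by the method of Benjamini and Hochberg. DESeq2 1.42.0, RLE factors, library size alone, no filter, a replicate block, a term for the letter that opens a liver's sample ID and each library left out were alternatives, and lists were also counted without 1 library, chosen after seeing the data. The fits were tested on simulated data. SE is the size of a log2 fold change over the square root of F. Exon lengths and coordinates are those of GENCODE M21 (GRCm38), and promoters those of RefSeq. Summaries used python 3.11.15 with pandas 2.3.3 and scipy 1.17.1, and plots used matplotlib 3.10.9.

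Every member is named. From each list, up to 4 genes at an unadjusted p under 0.05 with the largest differences are named, or 2 of the highest mean where none passed, with the 5 genes most like *Il6*, *Il12b* and *Il6ra*. *Osm*, *Jun*, *Pias1*, *Zfp36l1* and *Apobr* were named after their values were seen. The values of 1 listed gene are not reported here. The members and lists were chosen with earlier results of these data known. With 3 libraries per group and 28962878 to 40954211 counts each, a count of 0 allows up to 3 counts, and intervals cover counting error only.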

Additional observations from a re-analysis of the deposited data

Results flagged for a closer look

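The difference between genotypes in *Il6ra* was larger in BMDMs than in livers by 1.50 on the log2 scale (SE 0.60, edgeR unadjusted p = 0.0302, adjusted p = 0.30), and was picked out by the test of that difference itself. All 3 Tshr MKO BMDM libraries were above all Tshr f/f BMDM libraries, while the livers overlapped. With 1 library left out the value was 1.09 to 1.88.

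The same test picked out *Il6st*, with a difference of 0.47 (SE 0.20, edgeR unadjusted p = 0.0382, adjusted p = 0.320) and 0.35 to 0.55 with 1 library left out. Neither passed the adjustment over all genes, and each direction in liver follows the labels.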

How the results depend on the processing

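With 3 libraries per group, ligand genes at a few counts in liver could not be compared between genotypes, and the fold changes in BMDMs depended on Tshr f/f replicate 3. The count of members lower in BMDMs of Tshr MKO mice, by unadjusted p, was 7, between 6 and 7 with 1 library left out, and 4 with DESeq2, which gave 3 of the 7 no p. *Il6ra* in BMDMs passed an unadjusted p of 0.05 with DESeq2 (0.0251), with all 12 libraries in 1 fit (0.0182) and without Tshr f/f replicate 2 (0.0357) or 3 (0.00702). In livers 0 members passed, and 0 to 1 with 1 library left out (*Il6st* at −0.32 without Tshr f/f replicate 2 and *Il6ra* at −0.46 without Tshr f/f replicate 3). Between tissues 10 members were called, 9 to 10 with 1 library left out, and 4 between the Tshr MKO groups. In that last comparison 5476 of all 17246 genes were higher and 6342 lower, and *Il23a* turned to −3.52. The interaction had 4 members, 6 with DESeq2, 2 with library size alone and 2 to 5 with 1 library left out. Counts over all genes also moved with the setting, from 731 to 2299 lower in BMDMs with 1 library left out. Changes in the member counts are thus not read as results about the members. Directions turned in livers for *Ebi3* (−0.72 to 0.47 with 1 library left out, above 0 at 0.24 and 0.47 without Tshr MKO replicate 3 or Tshr f/f replicate 2) and *Il12rb1* (−0.53 to 0.22, the latter without Tshr MKO replicate 1), and in the interaction for *Il27* (−11.52 to 1.26, the latter without the liver Tshr MKO replicate 2). The cause was not tested.

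Over all genes, DESeq2 called 701 lower and 522 higher in Tshr MKO BMDMs after adjustment, against 0 and 0 in edgeR (85 and 65 with all 12 libraries in 1 fit), and 144 lower and 125 higher in livers. At an unadjusted p under 0.05 the BMDM counts of 1567 and 1189 became 731 and 564 without Tshr MKO replicate 1. Library size alone gave 1035 lower. Deviations of same-numbered libraries from their group means had correlations of 0.096, 0.013 and 0.102 in BMDMs and −0.056, 0.217 and −0.021 in livers. With 3 libraries per group these cannot decide whether the samples were paired, and the labels do not give litters. The replicate block left 7 members lower in BMDMs and 0 in livers, called 9 members between tissues (*Il23a* at 2.98, adjusted p = 0.11) and gave 3 in the interaction (*Il6st* at an unadjusted p of 0.0645).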
